A study of Mus musculus with 18 samples.

Results

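CTCF occupancy of the mouse ventricle was compared with an IgG background in 9 ChIP-seq libraries, 6 made with a CTCF antibody and 3 with control IgG, out of 18 libraries in the series. Chromatin immunoprecipitation followed by sequencing (ChIP-seq) recovers the DNA bound by the protein that an antibody recognises, and IgG binds no particular protein and so measures background. Of the 101256 genomic regions of the deposited matrix, the 99188 on chromosomes 1 to 19 were used, and each region is called a row here. The groups were WT mice, *Trdn-as* KO mice, which carry a polyA cassette in the first exon of the long noncoding RNA *Trdn-as*, and *Mettl3* KO mice. The latter are Mettl3lox/lox:alphaMHC-MerCreMerpos animals given tamoxifen, in which Cre acts in cardiomyocytes, so that other cells of the heart keep the RNA methyltransferase gene *Mettl3*. All were adult, chromatin came from ventricles of 2 hearts, and the controls are named only WT. Each genotype had 2 CTCF libraries and 1 IgG library, and the CTCF antibody and the IgG served as positive and negative controls of the immunoprecipitation.

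CTCF is a zinc-finger protein that binds a long DNA motif at promoters, enhancers and boundaries between chromatin domains. It halts the cohesin ring as cohesin extrudes DNA loops, and pairs of CTCF sites thereby often form the anchors of loops. Many of its sites are occupied in most tissues, and its best known sites insulate imprinted genes such as *H19*.

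Some of the promoters with the densest CTCF signal carry the letters of the CTCF core motif next to the gene start. The following 30-base stretches are examples, picked after the matches were seen, from promoters whose rows held between 16.7 and 18.6 CTCF RPM per kb, RPM being reads per 1000000 uniquely mapped reads, and their capitals mark a match to the 12-letter CTCF core searched here, which is CC, 3 bases of any kind, AG, 2 bases of any kind and GGC. They were read 5′ to 3′ on the strand that carries the match, from the RefSeq promoters of GRCm38.p6, which is an older build than the GRCm39 of the peaks, and were matched to the rows by gene symbol.
Polr2j: tcatccgagCCGCTAGGGGGCgggggccag
Upf3a: tggcccgcgCCTGTAGGGGGCagcgcggca
Trrap: gcctccgggCCGCCAGGGGGCgccgtagcc
C1qbp: tggcggctcCCAGCAGAGGGCgcggtccgg
Rsad1: caacagtgtCCACCAGGTGGCgccgcagac
The stretch of *Polr2j*, which encodes a subunit of RNA polymerase II (Pol II), is chr5:136116610-136116639 on the plus strand. On the minus strand, that of *Upf3a*, a factor of nonsense-mediated decay, is chr8:13785523-13785552, and that of *Trrap*, a scaffold of histone acetyltransferase complexes, is chr5:144768730-144768759. Those of *C1qbp* and *Rsad1* are chr11:70983078-70983107 and chr11:94549279-94549308, also on the minus strand. At *Rsad1* the 6 CTCF libraries held from 28.8 to 38.7 RPM and the 3 IgG libraries from 2.13 to 3.61. At *Upf3a* the ranges were 24.6 to 31.7 RPM for CTCF and 1.57 to 3.06 RPM for IgG. In both rows, which were picked for dense CTCF, every CTCF library was above every IgG library, as in 76996 of all 99188 rows.

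The depth differed strongly between the targets. The CTCF libraries held an estimated 6789319 to 10164067 reads in all 101256 regions, 32.1% to 39.2% of their uniquely mapped reads. The IgG libraries held 813032 reads there in WT, 273460 in *Trdn-as* KO and 429553 in *Mettl3* KO, 4.91% to 5.71% of their reads. IgG was at 0 in 7.56% of rows in WT, 32.9% in *Trdn-as* KO and 22.0% in *Mettl3* KO, and a count of 0 allowed up to 0.181, 0.569 and 0.399 RPM, for counting error only. After scaling within 6 classes of CTCF density, the squared difference between the CTCF libraries of *Mettl3* KO was 0.716 to 1.15 times that of counting and rounding error, against 1.23 to 1.67 times in the other pairs. These ratios rest on the estimated value of 1 read, which is uncertain for the first *Mettl3* KO library. As they exceeded 1 by little or not at all, the pair was counted as 1 sample in each mean ± SD of CTCF (n = 5). The 6 rows on the Y chromosome had a summed deposited value of 0 in every *Trdn-as* KO library, against 79 and 80 in CTCF of WT and 51 and 50 in CTCF of *Mettl3* KO, so sex and the *Trdn-as* KO genotype cannot be told apart. Pol II, used as a tissue check, was at 243 to 804 RPM in rows of the heart muscle genes *Myh6*, *Tnnt2*, *Myl2* and *Actc1* and at 9.21 and 8.59 RPM in rows near *Tnni3* and *Nppa* that lay off their starts. It was at 13.4 RPM at *Cdh5* of endothelium and at 18.9 and 13.7 at *Col1a1* and *Dcn* of fibroblasts, with *Col1a1* at 14.2 in WT and 29.5 in *Mettl3* KO, and at 1.12 and 1.43 at *Ptprc* and *Adgre1* of immune cells, while *Pecam1* had no row. Of markers of other organs, it was below IgG at *Snap25* of neurons and *Myh4* of fast skeletal muscle, but 2.22 times IgG at *Apoa1* of liver, with 1.97 RPM, and *Alb*, *Syp* and *Cdx2* had no row.

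CTCF lay above IgG in most rows. Of 63809 rows with at least 1 RPM in at least 2 of the 9 libraries, 63467 were higher in CTCF, which is 99.5%, and 8 were lower, which is 0.0125% (limma with Benjamini-Hochberg adjustment at 0.05, two-sided). The median difference was 1.77 on the log2(RPM + 0.5) scale, and 26176 rows, or 41.0%, were called and at least 4-fold higher. Rows could pass the filter of 1 RPM through their CTCF libraries alone, and 7983 had at least 1 RPM in each IgG library. Without the filter 88659 of all 99188 rows were higher and 57 were lower. The rows were peaks called against input in any of the CTCF, Pol II or IgG libraries, so signal over background is partly built into them. On the deposited scale, whose size factors raise IgG and lower CTCF, 26696 of 66658 rows tested were higher, which is 40.0%, and 5029 were lower, and the median difference was 0.68. As nothing states that the libraries of a pair came from separate animals, p-values measure only the spread between these libraries.

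**Figure D1:**
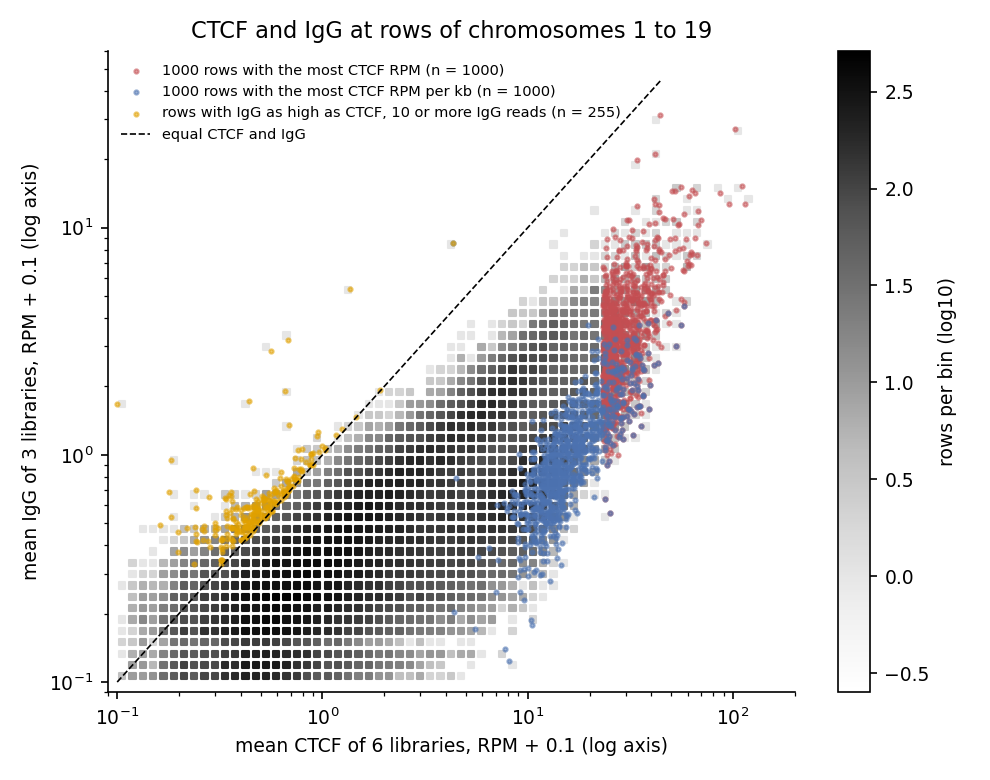
Mean RPM + 0.1 per row of CTCF over 6 libraries (horizontal) and of IgG over 3 libraries (vertical), on log axes, with grey bins for the number of rows and points for the lists of the strongest rows and the rows with IgG as high as CTCF. Most rows lie on the CTCF side of the dashed line of equal levels, and the 255 rows with IgG as high as CTCF lie on or above it, mostly at low levels.

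Ranked by their mean RPM, 17 of the 20 strongest CTCF rows lay over a gene start, against 12530 of all 99188 rows. The row with the most CTCF, chr16:23797882-23810506, covers the start of Gm37419 and lies in *Bcl6*, a transcriptional repressor gene. It held 110 and 112 RPM in the CTCF libraries of WT, 114 and 109.1 for *Trdn-as* KO, and 135 and 108 for *Mettl3* KO. The IgG libraries held 11.2 in WT, 13.5 in *Trdn-as* KO and 13.0 in *Mettl3* KO, and the groups were far apart. The first library of *Mettl3* KO was the highest of the 6 here, but its value of 1 read was picked among rival estimates by the share of reads in rows that it gave, so its order among the 6 is uncertain. The second row, at *Setd1b*, a histone H3K4 methyltransferase gene, had a mean of 109.6 ± 4.98 RPM (SD, n = 5) for CTCF and 15.2 ± 4.30 (SD, n = 3) for IgG.

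The third row, over the start of a misc_RNA gene on chromosome 19, had 102 ± 2.78 RPM (SD, n = 5) of CTCF over 24562 nt. Its IgG was 27.0 ± 2.33 RPM (SD, n = 3). The next rows stood at *Tns2*, which encodes a focal adhesion protein, *Crip2*, a LIM-domain gene of the cardiovascular system, and *Ltbp4*, which encodes a TGF-beta binding protein. Their CTCF means were 95.2 ± 2.85, 86.7 ± 3.69 and 74.3 ± 2.53 RPM (SD, n = 5), and their IgG means were 12.6, 14.1 and 8.44 RPM. Among the other rows of the 20 strongest were those of *Junb*, an AP-1 transcription factor gene, *Vegfa*, the angiogenic growth factor gene, *Per1*, a gene of the circadian clock, and *Gadd45g*, a stress response gene. The *Junb* row had 67.2 ± 2.58 RPM (SD, n = 5) and the *Gadd45g* row 60.3 ± 0.897. Every CTCF library exceeded every IgG library in all 20 rows, which were chosen for their CTCF. The same held in 94.8% of the rows tested and in 77.6% of all 99188 rows. Many of these rows also carried more Pol II than CTCF, for example *Setd1b* with 280 RPM, the third row with 527 RPM, and *Tnrc18* with 274 RPM.

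Counted per kb of row length, other rows led. Leaving out rows shorter than 200 nt, of which 2 stood higher at up to 45.6 RPM per kb, the first was chr12:69206289-69206938 near *Rps29*, a ribosomal protein gene, with 23.9 RPM per kb. Its CTCF libraries held 15.8 and 13.0 RPM for WT, 15.0 and 18.8 for *Trdn-as* KO, and 17.0 and 13.5 for *Mettl3* KO, against 0.902, 0.752 and 0.519 RPM of IgG. The second was chr13:3715235-3715879, outside any promoter, with 17.4 and 13.8 RPM for WT, 13.7 and 17.2 for *Trdn-as* KO, and 16.8 and 13.0 for *Mettl3* KO, against IgG of 0.427, 0.578 and 0.260. In both rows, which were ranked by this CTCF, no IgG library came near a CTCF library. Every CTCF library exceeded every IgG library in 999 of the 1000 densest rows and in 76996 of all 99188. Rows near *Exoc3l2*, an exocyst-related gene, and *Dnlz*, a mitochondrial chaperone partner gene, followed with 22.7 and 21.9 RPM per kb. *Ap5b1*, a gene of an adaptor protein complex, was the row among these 10 with the most reads, 52.9 ± 3.13 RPM (SD, n = 5) against 2.92 of IgG. Pol II was 2.65 RPM per kb at *Rps29* and 1.11 at the chromosome 13 row, but 10.6 at *Ap5b1* and 21.4 at *Dnlz*, close to the CTCF of that row.

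**Figure D2:**
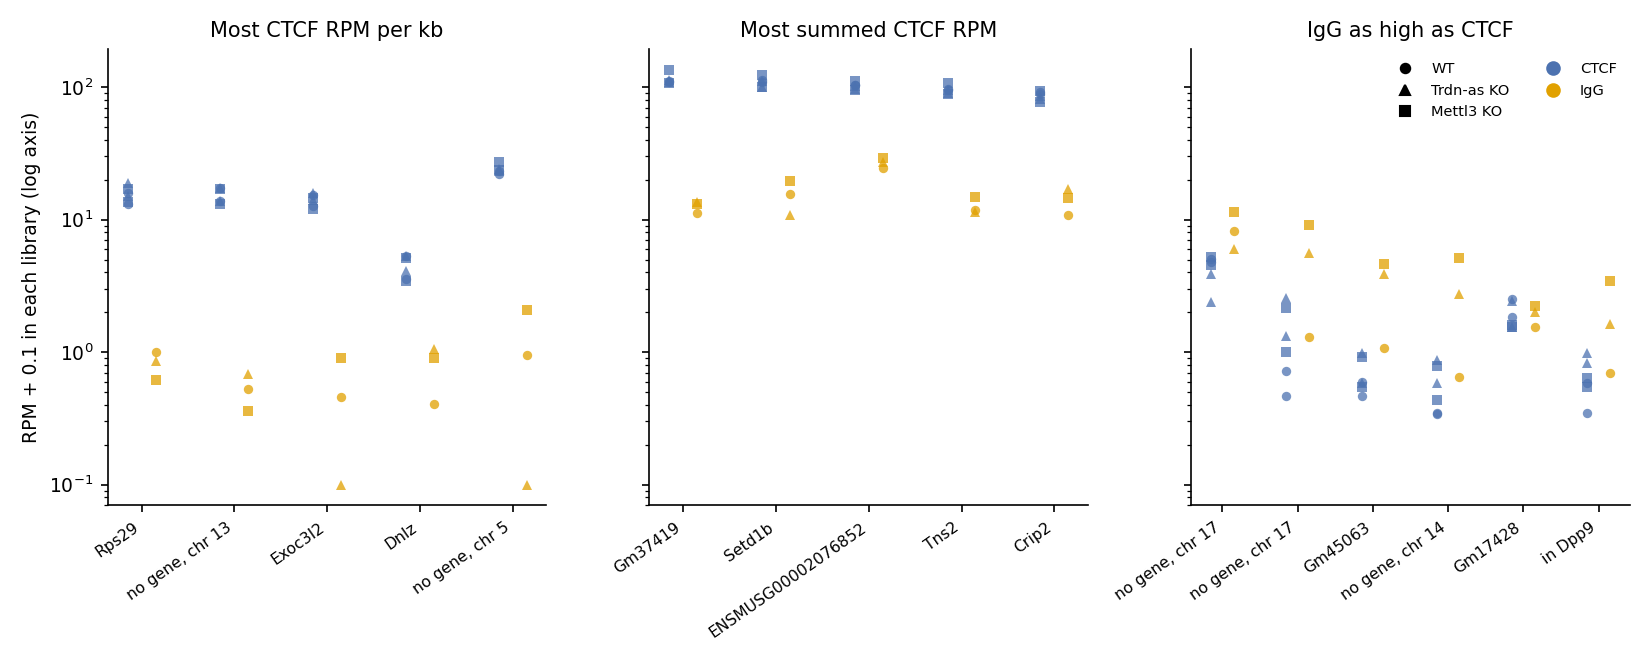
RPM + 0.1 of every CTCF (blue) and IgG (orange) library at named rows, on a log axis, with a symbol for each genotype. The CTCF libraries lie well above IgG at the strong rows, and below or among IgG at the rows chosen for high IgG.

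The promoter share of the strongest sites depended on how strength was counted. A promoter row is here a row within 5000 nt of the start of its annotated gene. Among the 1000 rows with the most RPM, 78.7% were promoter rows, and ranking each library alone gave 78.3% ± 1.32 (SD, n = 5) with 76.9% to 79.8% over the 6 libraries. Among the 1000 rows with the most RPM per kb, the share was 38.1%, and each library alone gave 37.2% ± 1.98 (SD, n = 5). Over all rows it was 37.8%. The difference between the rankings was thus much larger than the spread between libraries, and the share per kb was close to that of all rows. The lists had 140 rows in common, 14% of each.

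The rankings also differed in what the rows were. By summed RPM, the 1000 rows had a median length of 2978.5 nt, 63.4% lay over a gene start, and 49.4% had more Pol II than CTCF. By RPM per kb, the median length was 976.5 nt, 17.8% lay over a start, and 2.5% had more Pol II than CTCF. Over all 99188 rows the median length was 417 nt, 12.6% lay over a start, and 35.9% had more Pol II than CTCF. Of the 619 rows of the second list that were not promoter rows, 445 had Pol II below 2 times IgG. Over all rows, promoter rows included, Pol II was at least 2 times IgG in 57518 of 99188. Along the ranks of summed RPM the promoter share fell from 81.5% in the first 200 rows to 59.98% in ranks 1001 to 5000 and 32.7% after rank 50000. Along the ranks of RPM per kb it ran between 33.4% and 42.2% with no steady course. The weakest row inside each list and the strongest outside it were 23.13 and 23.10 RPM, and 13.824 and 13.823 RPM per kb.

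**Figure D3:**
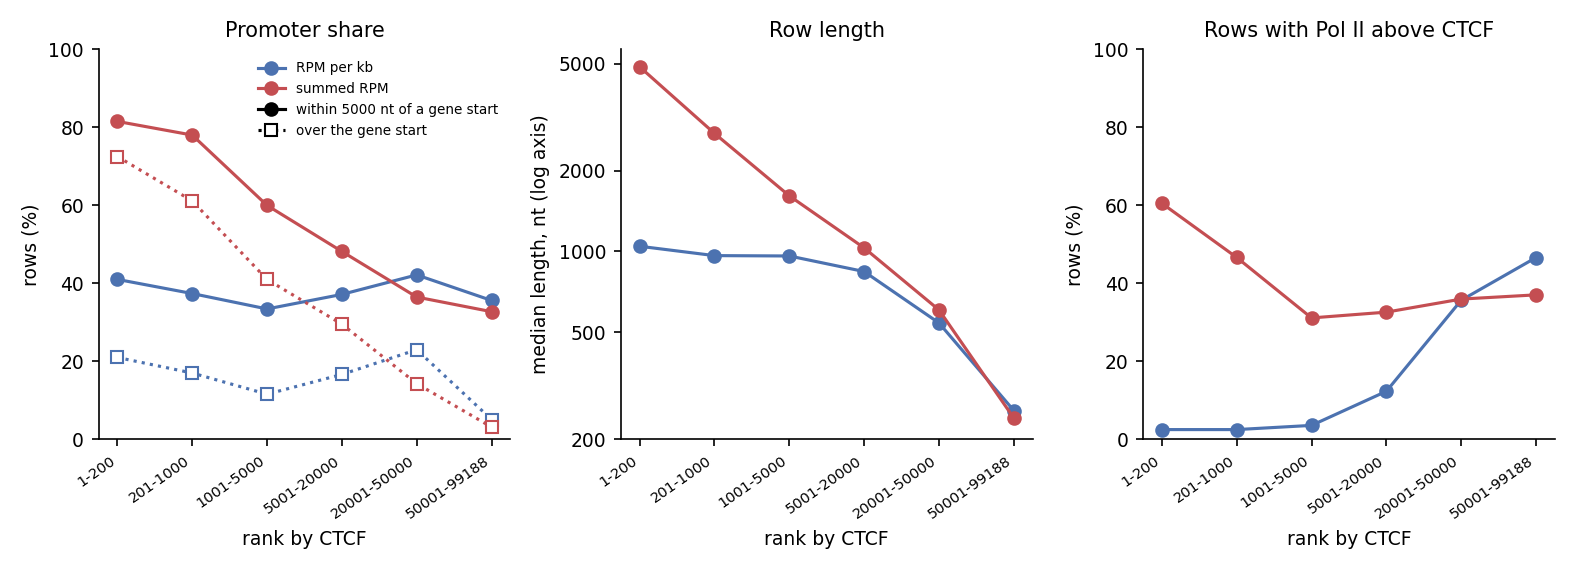
Promoter share and share over the gene start (percent), median row length (nt, log axis) and share of rows with Pol II above CTCF (percent) by rank class of CTCF, for rows ranked by summed RPM and by RPM per kb. The promoter share falls from 81.5% to 32.7% along summed RPM and stays between 33.4% and 42.2% along RPM per kb.

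The distance between sites depends on how many are taken, so it was compared between lists of 1000 rows. The median distance between the centres of neighbouring rows was 567 kb among the 1000 rows by summed RPM, and 589 ± 17.9 kb (SD, n = 5) with each library ranked alone. It was 1067 kb by RPM per kb, with 1097 ± 67.0 kb (SD, n = 5). The larger lists had shorter distances, 31.2 kb over the 26176 rows called at least 4-fold and 6.15 kb over all 99188 rows. Rows of the summed list more often had a neighbour within 50 kb, in 13.6% of the gaps against 4.08% by RPM per kb, and 40.7% and 51.5% of the gaps were over 1 Mb.

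The closest pair of the densest rows lay on chromosome 14, at chr14:122297961-122298769 and chr14:122301736-122302374, with centres 3690 nt apart and 13.3 and 10.3 RPM. A pair at *Scrn2* on chromosome 11, with 14.7 and 16.2 RPM, had centres 3706.5 nt apart. The longest gap between the densest rows, of 26.0 Mb, was also on chromosome 14, and the longest between rows of the summed list was 39.1 Mb. Chromosome 11 held the most strong rows, 112 by summed RPM and 95 by RPM per kb, or 0.944 and 0.800 per Mb of the stretch its rows span. It also had the most rows of any kind, 7788 of 99188, and the most called at least 4-fold, 17.4 per Mb. Chromosome 13 had the fewest per Mb by summed RPM, 0.196, and chromosome 12 by RPM per kb, 0.265.

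**Figure D4:**
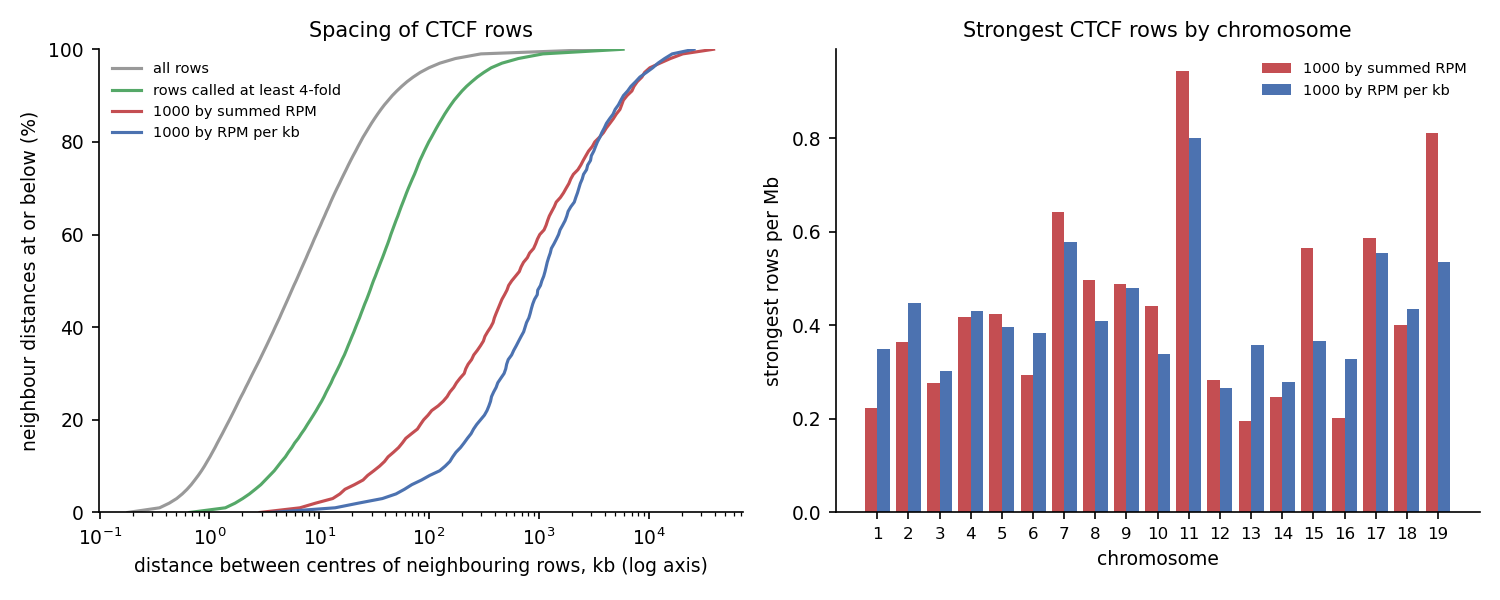
Cumulative share of gaps by distance between neighbouring row centres, on a log axis, and strong rows per Mb by chromosome. The gaps of both lists lie mostly beyond 50 kb, and chromosome 11 has the highest bars, with 0.944 and 0.800 rows per Mb.

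Rows chosen in WT alone had similar levels in the knockouts. The 1000 rows with the most CTCF in WT had a median of 27.8 RPM in WT, where they were chosen, 27.6 in *Trdn-as* KO and 27.6 in *Mettl3* KO. The level of *Mettl3* KO depends in part on the value of 1 read picked for its first library. The IgG medians were 2.85, 3.04 and 3.58 RPM, and mean CTCF exceeded IgG in 1000 of 1000 rows in each genotype. Of all 99188 rows, IgG was as high as CTCF in 2233 for WT, 5004 for *Trdn-as* KO and 4447 for *Mettl3* KO, without a minimum of reads. The list of WT shared 89.9% of its rows with that of *Trdn-as* KO and 90.5% with that of *Mettl3* KO, and lists of equal size from the single libraries of a pair shared 88.7% to 92%. By RPM per kb the shares were 77.5% and 71.0% between genotypes and 64% to 79% within pairs. The lists of a genotype rest on the mean of its pair and those of the pairs on 1 library each, so these shares cannot be set against each other.

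The CTCF core was more frequent in promoters with denser CTCF. Of 32841 RefSeq promoter windows of 300 nt (250 before to 50 after the start), 8.61% held this core on either strand. A stricter core, which begins with CCA, is contained in it and was in 2.43%, and the letters of the core in reverse order, which are not its other strand, were in 2.77%. These patterns were chosen after others had been tried on the same windows. Of 12393 genes with a row over the start, 8678 matched a window by symbol. In 10 classes of these by CTCF per kb, the core was in 8.07% of windows in the lowest, 18.1% in the ninth and 29.95% in the highest class. The strict core was between 1.38% and 3.11% in the lower 8 classes, 4.49% in the ninth and 10.8% in the highest. The reversed letters were lowest in the lowest class, 3.00%, highest in the fifth, 6.34%, and 5.53% in the highest class. By Pol II per kb the core share was 18.0% in the lowest and 12.0% in the highest class. Among the densest 1000 rows, 131 of 178 over a start matched, and 37.4% of these held the core. Among the 1000 rows by summed RPM, 457 of 634 matched and 20.1% held it, against 13.7% of all 8678. The GC content was 57.7% in the lowest CTCF class and 59.9% in the highest, and its part in the shares was not tested.

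**Figure D5:**
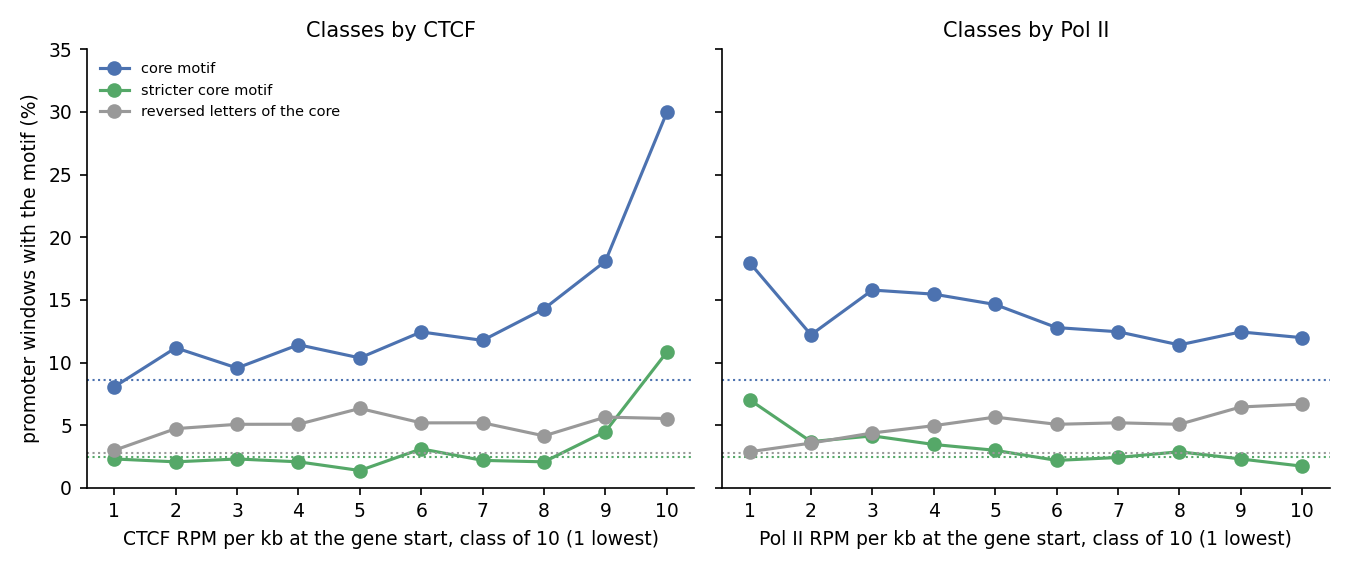
Share of 300-nt promoter windows (percent) with the CTCF core, the strict core and the reversed letters, by class of CTCF per kb and of Pol II per kb at the row over the start. Dotted lines give the shares over all windows, 8.61% for the core. The core rises to 29.95% in the highest CTCF class and is at 12.0% in the highest Pol II class.

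Of 15 genes listed for CTCF, cohesin and related factors, 11 had a tested row, and *Ctcfl* and *Stag1* had no row. All 11 were higher in CTCF, as were 17591 of the 17618 genes with a tested row, and 7 were also at least 4-fold higher. This list and those that follow were chosen with earlier results in view, and the strongest row of each gene was taken. For comparison, 49.7% of the 17618 genes had a strongest row called at least 4-fold, with a median log2 difference of 2.00. On the deposited scale the differences of *Yy1*, *Wapl*, *Mau2* and *Rad21* turned negative, but none was called lower (adjusted p from 0.338 to 0.750 by limma). *Pds5a*, whose product regulates cohesin release, had 34.5 ± 4.25 RPM (SD, n = 5) against 2.57 ± 0.574 (SD, n = 3), a log2 difference of 3.51. *Ctcf* itself had 20.05 and 18.6 RPM for WT, 17.4 and 23.4 for *Trdn-as* KO, and 20.6 and 16.8 for *Mettl3* KO, against IgG of 2.54, 2.66 and 3.58. Its lowest CTCF library thus lay well above its highest IgG library, with a log2 difference of 2.55 (SE 0.16, adjusted p = 7.5e-19 by limma). *Rad21*, the kleisin subunit of cohesin, had the smallest difference of the 11, 1.66. *Cdca5* and *Zfp143* were too low to be tested.

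Of 14 genes of textbook CTCF loci, *Igf2*, *Rasgrf1*, *Meg3*, *Hoxa9*, *Hoxd13* and *Hbb-bs* had no row. All 8 others were higher, as were 17591 of the 17618 genes with a tested row, and 6 were at least 4-fold higher, with a median log2 difference of 3.02. On the deposited scale the differences of *Lmbr1* and *Kcnq1ot1* turned negative, but neither was called lower (adjusted p of 0.489 and 0.203 by limma). *H19*, the imprinted RNA gene whose upstream control region is a classical CTCF site, had 19.9 and 19.01 RPM for WT, 18.9 and 19.7 for *Trdn-as* KO, and 21.5 and 16.4 for *Mettl3* KO. IgG there was 1.64, 0.752 and 1.18 RPM and Pol II 1.33 RPM, so CTCF stood apart from both. The log2 difference at *H19* was 3.57, and it was 3.37 at *Peg13*, an imprinted noncoding RNA gene, and 2.93 at *Myc*, the growth regulator gene.

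For 19 of 20 heart genes the strongest CTCF row was tested. All 19 were higher in CTCF and 6 were at least 4-fold higher, with a median log2 difference of 1.87. Of all 17618 genes, 49.7% were at least 4-fold higher and the median was 2.00. On the deposited scale the difference turned negative in 14 of the 19. Of these, *Myl2*, *Gata4*, *Ryr2* and *Nkx2-5* were not called lower (adjusted p from 0.0521 to 0.955 by limma). The strongest CTCF row of *Casq2*, which encodes the calcium store protein calsequestrin, lay 4373 nt from its start, outside any gene that is annotated to a row. It had 12.0 ± 0.754 RPM (SD, n = 5) of CTCF against 0.919 of IgG, a log2 difference of 3.15 with Pol II at 0.711 RPM. *Trdn*, which encodes triadin and lies opposite *Trdn-as*, had 4.12 ± 0.272 RPM (SD, n = 5) against 0.611, a difference of 2.08. The smallest difference was at *Myh6*, the alpha myosin heavy chain gene, where CTCF was 36.3 and 35.7 RPM for WT, 37.8 and 39.1 for *Trdn-as* KO, and 61.8 and 53.7 for *Mettl3* KO. IgG at *Myh6* was 23.8, 30.6 and 39.1 RPM, so the groups overlapped across genotypes, and Pol II was 804 RPM. Within each genotype both CTCF libraries were above its IgG library. The *Mettl3* KO animals carry a transgene driven by the alphaMHC promoter, and its part in these values was not tested.

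IgG was as high as CTCF in 255 rows, counting rows with at least 10 IgG reads, of which there were 44913. These rows were chosen by the values compared, so the count is a description. It was 19849 on the deposited scale, 59 with the library size outside peaks, 138 without IgG of WT and 152 without IgG of *Mettl3* KO. They were short, with a median length of 287 nt against 843 nt over the 44913 rows, and low, with medians of 0.365 RPM of CTCF and 0.477 of IgG. Of the 255, 112 or 43.9% were promoter rows, near the 45.7% of the 44913. Over a gene start lay 13 of the 255, against 10931 of the 44913. Pol II was at least 2 times IgG in 129 of the 255 and in 28847 of the 44913. Only 31 passed the filter of the test, and all 8 rows called lower are among the 255. In 14 of the 255 rows every IgG library exceeded every CTCF library. Counting each genotype by its own libraries gave 74 of 26196 rows with 10 IgG reads for WT, 58 of 5905 for *Trdn-as* KO and 111 of 11888 for *Mettl3* KO, or 0.282%, 0.982% and 0.934%. The ratios of CTCF to IgG just inside and just outside the limit were 0.9993 and 1.0022.

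The row with the most IgG among them was chr17:13525883-13526020, outside any gene that is annotated to a row. It was only 138 nt long, which also put it among the 1000 rows with the most CTCF per kb. Its CTCF libraries held 4.98 and 4.69 RPM for WT, 3.78 and 2.31 for *Trdn-as* KO, and 4.48 and 5.14 for *Mettl3* KO, and IgG 8.05, 5.90 and 11.4. Every IgG library was above every CTCF library. At chr6:132440612-132440824, near Gm45063, CTCF was 0.365 and 0.494 RPM for WT, 0.889 and 0.486 for *Trdn-as* KO, and 0.815 and 0.447 for *Mettl3* KO. IgG there was 0.973, 3.79 and 4.53 RPM, lowest in WT but still above every CTCF library. At chr10:47680543-47680637 the deposited value was 0 in every CTCF library, where 1 read is worth under 0.5 and rounds to 0, and IgG was 3.32, 0.752 and 0.663 RPM. *Chrna10*, a nicotinic receptor subunit gene, had 0.567 ± 0.235 RPM (SD, n = 5) of CTCF and 1.25 ± 0.318 (SD, n = 3) of IgG.

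Some of these rows lie in heart genes, and 1 in *Esr1*. A row in *Trdn*, chr10:33076772-33078096, had CTCF of 1.22 and 1.11 RPM for WT, 0.333 and 0.607 for *Trdn-as* KO, and 0.815 and 1.01 for *Mettl3* KO, with IgG of 1.02, 1.53 and 0.923. Its groups overlapped, and Pol II was 7.48 RPM in WT, 0.555 in *Trdn-as* KO and 4.53 in *Mettl3* KO. A row of 2268 nt in *Myh7*, the beta myosin heavy chain gene, had 1.88 ± 0.468 RPM (SD, n = 5) of CTCF, 1.83 ± 0.350 (SD, n = 3) of IgG and 23.1 of Pol II. In *Esr1*, the estrogen receptor gene, chr10:4947771-4948059 was listed at 0 for CTCF of WT and *Trdn-as* KO, with 0.408 and 1.01 RPM in *Mettl3* KO, and IgG of 0.190, 0.376 and 1.07. Pol II at this row was 10.3 RPM in *Mettl3* KO against 0.0422 in WT. MerCreMer contains a part of the estrogen receptor, and whether reads of the transgene fell on this row was not tested.

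IgG rose with Pol II over all rows. In 10 classes of rows by Pol II per kb, the median IgG went from 0.441 RPM per kb in the lowest to 1.13 in the highest class. The 10 rows with the most summed IgG RPM were all long rows over gene starts, led by *Myh6* with 31.1 ± 7.64 RPM (SD, n = 3). They included *Mir133a-2*, a muscle microRNA gene, with 21.1 and *Myh7* with 19.8. A sum grows with row length, and per kb these 10 rows held 0.917 to 1.29 RPM of IgG. The 255 rows sat mostly in the seventh and eighth classes, with 62 and 77 rows.

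The enrichment over IgG was set against that of WT with a limma interaction term. Each genotype had a single IgG library, so the spread came from the CTCF pairs alone, and a difference between IgG libraries is not tested by it. The term passed the threshold in 6080 rows for *Trdn-as* KO, 9.53% of those tested, with 2896 higher and 3184 lower in the knockout, and in 3257 rows for *Mettl3* KO, 5.1%, with 1013 higher and 2244 lower. On the deposited scale the balance turned, with 25799 higher and 10893 lower for *Trdn-as* KO and 18187 higher and 12403 lower for *Mettl3* KO. In 1790 of the 2896 higher rows the IgG library of *Trdn-as* KO had no read, as had that of *Mettl3* KO in 460 of 1013. CTCF itself changed at least 2-fold, every knockout library against every WT library, in 104 of the 6080 and in 34 of the 3257. Such changes were counted in the called rows alone, so their share over all rows tested is not known. With a pseudocount of 2 RPM the calls of the term fell to 20 higher and 54 lower, and to 0 higher and 14 lower. Without the first CTCF library of WT they were 1099 and 129 in either direction, without the second 1121 and 274, and without the first CTCF library of *Mettl3* KO 10497 and 7868.

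A few of the called rows differed in CTCF itself. At chr13:120198321-120199029 in *Nim1k*, a protein kinase gene, CTCF was 0.243 and 0.370 RPM for WT, 8.56 and 7.17 for *Trdn-as* KO, and 0.272 and 0.335 for *Mettl3* KO, with IgG from 0.260 to 0.376. Both *Trdn-as* KO libraries were far above all others, with an interaction of 3.34 on the log2 scale. At chr9:48606907-48607742 in *Zbtb16*, a zinc-finger transcription factor gene, CTCF was 9.23 and 9.50 RPM for WT, 0.333 and 0.121 for *Trdn-as* KO, and 10.2 and 8.38 for *Mettl3* KO. The *Trdn-as* KO libraries were below every IgG library, which held 0.376 to 0.923 RPM, with an interaction of -3.23. Rows in *Kmt2e*, a chromatin regulator gene, and *Ncapg2*, a condensin gene, also had CTCF of 0.111 and 0.243 RPM in *Trdn-as* KO, against 4.62 and 3.83 and against 4.01 and 2.96 in WT. Of the rows named for *Mettl3* KO, *Lsm7* had CTCF of 4.496 and 5.06 RPM for WT and 5.57 and 4.14 for *Mettl3* KO, with IgG of 0.736 and 4.90 RPM.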

How the data were processed

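ChIP-seq libraries of mouse ventricles were grouped by genotype from their labels. According to the study's methods and the submitters' processing notes, the authors used Trimmomatic 0.39 for trimming and STAR 2.7.11b for alignment to GRCm39, removed duplicates with Picard 3.1.1, called peaks with MACS against input, unified them, counted with featureCounts and normalized with DESeq2 1.36.0. The deposited values are these normalized counts rounded to whole numbers, and were treated as a score. The value of 1 read was estimated per library from the spacing of the values, and RPM is the estimated reads per 1000000 uniquely mapped reads of the Reporting Summary. Whether that total precedes duplicate removal is not given in the sources used here. For the first CTCF library of *Mettl3* KO, 3 other values of 1 read were possible, and the one that gave the nearest share of reads in rows was taken.

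Since the values are normalized, no edgeR test was run and edgeR was not needed. limma 3.58.1 in R 4.3.3 was run on log2(RPM + 0.5) with a variance trend, genotype as a term and Benjamini-Hochberg adjustment, on rows with at least 1 RPM in at least 2 of 9 libraries, and was tested on simulated data. Python 3.11.15, pandas 2.3.3, numpy 2.4.6, scipy 1.17.1 and matplotlib 3.10.9 did the rest. The rows named were the 20 strongest by RPM, the strongest of each chromosome, the 10 strongest promoter rows, the 10 densest of at least 200 nt, the 15 with the most IgG among rows with IgG as high as CTCF, up to 5 rows per direction in each interaction, and the strongest row of each listed gene. The *Esr1* row, the promoters whose sequence is shown and the rows with the most IgG were chosen after their values were seen. The members, lists and tests were chosen with earlier results of these data known. Of rows on other chromosomes only those on Y were used, as a check of sex. Pol II served as a descriptive readout beside CTCF and IgG, without a test, and the input libraries were not used here. A gene of the heart list and a promoter stretch are not reported here.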

Additional observations from a re-analysis of the deposited data

Results flagged for a closer look

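Differences of the CTCF over IgG enrichment between genotypes were flagged by an interaction term, which passed the threshold in 6080 rows for *Trdn-as* KO and 3257 for *Mettl3* KO against WT. With 1 IgG library per genotype, the IgG part of these differences was not tested. Without the first CTCF library of WT the counts were 1099 and 129. The rows with the smallest adjusted p in each direction follow, as interactions on the log2 scale. For *Trdn-as* KO, the higher rows were those in *Nim1k* (3.34), at Gm15852 (2.52), at chr11:43383184-43385477 (2.15), in *Prkar2b* (2.24) and in *Abl1* (2.22). The lower rows were those in *Zbtb16* (-3.23), in *Kmt2e* (-3.05), at *Arhgef5* (-2.60), in *Ncapg2* (-2.90) and at *Atxn7* (-2.35). CTCF itself differed between *Trdn-as* KO and WT in those of *Nim1k*, Gm15852, *Zbtb16*, *Kmt2e* and *Ncapg2*. At Gm15852 it was 3.04 and 3.33 RPM for WT, 8.45 and 9.96 for *Trdn-as* KO, and 3.40 and 2.35 for *Mettl3* KO. IgG for WT, *Trdn-as* KO and *Mettl3* KO was 1.69, 0 and 1.18 RPM in *Prkar2b*, 1.76, 0 and 0.260 in *Abl1*, and 0.190, 2.66 and 0.144 at *Arhgef5*.

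For *Mettl3* KO, the higher rows were those at *Atg4d* (2.11), in *Dand5* (1.88), in *Ddx21* (1.76), at *Htra3* (2.02) and at chr4:66400806-66401523 (2.09). The lower rows were those in *Set* (-2.19), at *Lsm7* (-2.12), *Parp6* (-1.98), Mir7043 (-2.18) and *Pitpnb* (-2.01). In 4 of the higher rows the IgG library of *Mettl3* KO had no read, and at *Htra3* it had 1. In the lower rows the IgG library of *Mettl3* KO held between 2.39 and 5.97 RPM, above the other IgG libraries.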

How the results depend on the processing

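The count of rows with CTCF above IgG kept its direction under every scaling, filter and pseudocount tried, and leaving out 1 library gave 61700 to 63264 rows higher. On the deposited scale it was 26696, and 26176 with a 4-fold minimum. Without the filter it was 88659 of 99188, with 57 lower. The replicate numbers did not pair the libraries (correlations of -0.249, 0.024 and -0.01), and with a replicate block 63175 rows were higher. The interactions depended more on the settings. For *Trdn-as* KO the calls were 36692 on the deposited scale, 74 with a pseudocount of 2 RPM, 2256 with the replicate block (1132 higher, 1124 lower), 650 (28 higher, 622 lower) among the 7983 rows with at least 1 RPM in each IgG library and 10498 with the *Mettl3* KO pair averaged. For *Mettl3* KO they were 30590, 14, 684, 484 (9 higher, 475 lower) and 5089. Leaving out 1 library gave 1099 to 10497 calls for *Trdn-as* KO and 129 to 7868 for *Mettl3* KO. The lowest were without the first CTCF library of WT, and without the second they were 1121 and 274. Without a CTCF library of *Trdn-as* KO the first count was 3820 or 3727, and without one of *Mettl3* KO 10497 or 10465. The second was 7868 without the first CTCF library of *Mettl3* KO, and without the second it was 2327 higher and 2221 lower, which turned the balance. For *Trdn-as* KO the balance turned without the first CTCF library of WT (630 higher, 469 lower) and of *Trdn-as* KO (2300 and 1520), and with the replicate block. The cause was not tested. A genotype left with 1 CTCF library was assumed to vary like the others, and no interaction could be fitted without the IgG library of its genotypes. The minimum in each IgG library, the averaged pair and the rows of 200 to 1000 nt were chosen after seeing the data.

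The promoter share was 81.5% in the strongest 200 rows, 63.7% in 5000, 38.1% by RPM per kb, 74.8% by CTCF minus IgG and 26.4% among rows of 200 to 1000 nt. The spacing was 4102, 102, 1067, 587 and 1035 kb. IgG was as high as CTCF in 19849 rows on the deposited scale, 59 with the library size outside peaks, 1666 without a read minimum, 57 at 1.5 times CTCF, 2855 at 0.5 times and 44 in each genotype. Leaving out 1 library gave 138 to 273 rows, with 138 without IgG of WT and 152 without IgG of *Mettl3* KO.

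On the deposited scale the log2 difference turned negative at *Yy1* (-0.26), *Wapl* (-0.11), *Mau2* (-0.083), *Rad21* (-0.16), *Lmbr1* (-0.29), *Kcnq1ot1* (-0.30), *Pln* (-0.26), *Myl2* (-0.25), *Myh6* (-1.66), *Tnnt2* (-0.43), *Myh7* (-1.37), *Atp2a2* (-0.61), *Actc1* (-1.30), *Gata4* (-0.025), *Gja1* (-0.57), *Ryr2* (-0.014), *Nkx2-5* (-0.039), *Tbx5* (-0.68), *Nppb* (-1.47) and *Nppa* (-1.03). Reads in IgG limited the depth, and estimated read values below 1 limited the CTCF libraries.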
